A study of Homo sapiens with 4 samples.

Results

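The cytosolic ribosomal protein genes encode the protein components of the ribosome that translates nuclear-encoded mRNA. They were taken as the protein-coding genes of GENCODE 29 whose symbol is RPL or RPS followed by a number and at most 1 letter (L may carry a further digit), together with RPLP0, RPLP1, RPLP2 and RPSA. RPS27L, the S6 kinase genes and Y-linked genes were left out. This gave 83 of 58735 annotated genes, 52 of the large subunit and 31 of the small, spread over 21 chromosomes. Among them are 6 paralogs of a core member, RPL3L, RPL7L1, RPL10L, RPL22L1, RPL26L1 and RPL39L.

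A ribosome needs 1 copy of nearly every core protein, so cells make these proteins in near-equal numbers from many unlinked genes. Their mRNAs are among the most abundant in growing cells. They begin with a C followed by a run of pyrimidines, the 5′ terminal oligopyrimidine (TOP) tract, through which the growth-regulating kinase mTOR and the RNA-binding protein LARP1 adjust their translation. Ribosomal protein mRNAs are long-lived, and much of their known control acts on translation, not on mRNA amount. Some members also work outside the ribosome: RPL5, RPL11 and RPL23 can bind MDM2, the ubiquitin ligase of the tumour suppressor protein p53, when ribosome assembly is disturbed.

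The libraries came from AC16 cells, an established human line derived from a fusion of heart muscle cells with fibroblasts and labelled as cardiomyocytes. There was 1 untreated library (0 min) and 1 library each after 10, 30 and 360 min in 10 nM doxorubicin, an anthracycline anticancer drug that binds DNA and poisons its topoisomerases. For dosing, medium with serum was replaced by drug in serum-free medium; whether cells of the 0 min group were changed too is not stated, so drug, medium change and loss of serum cannot be told apart. Cells were detached with trypsin before RNA extraction in every group, and polyadenylated RNA was turned into cDNA. The design asks how the transcriptome of these cells moved with time in the drug.

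With 1 library per time there is no replicate check, no SD and no p-value, and all 3 comparisons share the 0 min library. Ranges after a ratio are 95% counting intervals and hold no variation between cultures. The libraries held 56875881, 55596712, 55278725 and 55156612 counts at 0, 10, 30 and 360 min, and values are given as CPM, counts scaled to an equal library total. In bulk RNA, fewer cells of a type and less RNA per cell cannot be told apart. Of 12 cardiomyocyte markers, 5 reached 1 CPM in each library, and the list summed to 92.6, 126, 184 and 127 CPM, most of it NPPB and MYL2. TNNT2, TNNI3, MYH6, MYH7 and ACTN2, which encode defining proteins of the sarcomere, stayed below 1 CPM in every library, and PLN was at 0. Of 10 fibroblast markers, 5 reached 1 CPM, summing to 10522, 13776, 8981 and 8897 CPM with COL1A1 highest, while DCN and LUM were at 0. Endothelial markers summed to 5.70, 11.4, 4.54 and 5.91 CPM with KDR at 0, immune markers to 30.2, 57.6, 33.0 and 29.8 CPM with CD14 at 0, and epithelial markers to 1.27, 1.28, 1.47 and 1.63 CPM with KRT14 at 0. The fibroblast, endothelial and immune sums were therefore highest in the 10 min library. In every library most of the endothelial sum was VWF and most of the immune sum was CD68. The endothelial and immune sums thus mainly follow a single gene each and do not show a change in cell types. The part of the marker genes in the differences below was not tested.

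Ribosomal protein mRNA moved little over 360 min of exposure. Of the 83 members, 80 reached 5 CPM in the libraries compared, 49 of the large subunit and 31 of the small. Their median log2 ratio to 0 min was 0.0027 at 10 min, -0.016 at 30 min and -0.050 at 360 min. All annotated genes that reached 5 CPM had medians of -0.035, -0.0081 and 0.0089. At 10, 30 and 360 min, 72, 76 and 77 of 80 members were less than 25% above and less than 20% below the 0 min library (90%, 95% and 96.2%), against 41.6%, 67.0% and 72.1% of all genes. The interquartile range of their log2 ratios was 0.171, 0.0944 and 0.0944, against 0.798, 0.401 and 0.336 for all genes. Members are abundant and counting error is small for abundant genes, so the same range was taken over genes at 100 CPM or more, where it was 0.659, 0.266 and 0.218 over 2154, 2099 and 2075 genes. Of those genes, 49.8%, 78.3% and 85.2% were less than 25% above and less than 20% below 0 min.

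The balance of small shifts differed between times. At 10 min 40 members were above their 0 min level and 40 below, at 30 min 32 were above and 48 below, and at 360 min 18 were above and 62 below. At 10 min the balance and the sign of the median moved with the scaling: with TMM factors 29 members were above and 51 below, with a median of -0.038, and with median-of-ratios factors 32 were above and 48 below, with a median of -0.029. Those factors put the median of all genes at -0.078 and -0.069 at 10 min; at 30 and 360 min the members' median stayed negative under both. At 360 min the counting interval lay wholly below 1 for 40 members, wholly above 1 for 7 and covered 1 for 33. These are shifts of a few percent: the median ratio at 360 min was 0.966. Over all 4 libraries the highest level of a member was a median of 1.11 times its lowest, with quartiles of 1.07 and 1.19. The highest level was less than 25% above the lowest for 67 of 80 members (83.8%), against 18.7% of 12108 genes that reached 5 CPM in some library and had counts in all 4. Those genes were not matched to the members for abundance. RPL26, which lies at the exit of the peptide tunnel and shares 14.3% of its exon bases with AC135178.2 on the same strand, had the narrowest range, 1.02-fold, with 358, 362, 355 and 356 CPM at 0, 10, 30 and 360 min. RPL7L1 had the widest, 3.31-fold.

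**Figure D1:**
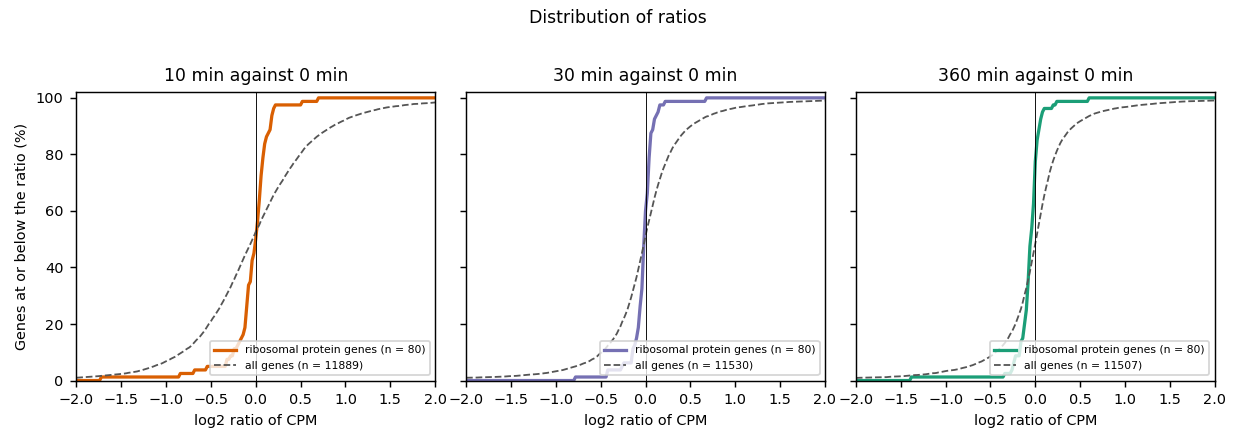
Cumulative distribution of the log2 ratio of CPM to the 0 min library at 10, 30 and 360 min (left to right), for 80 ribosomal protein genes (solid) and for all genes with at least 5 CPM in either library (dashed; 11889, 11530 and 11507 genes). The solid curve climbs steeply near 0 in each panel, with 90%, 95% and 96.2% of members less than 25% above and less than 20% below 0 min, while the dashed curve is widest at 10 min.

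The annotated starts of the members were read for the TOP tract. RefSeq promoters on GRCh38.p14 held at least 1 start for 66 of the 83 members. A tract was counted where the base at the start was C and at least 4 pyrimidines followed it, on the gene's own strand. At least 1 start with a tract was found in 47 of the 66 members (71.2%), against 5.14% of 27305 genes in the same table. By start, the shares were 47 of 82 (57.3%) and 1429 of 35116 (4.07%). The sequences below run from 10 bases before the start to 20 bases from it, and capitals mark the tract. They show RPS6 and RPLP0 as members with a long tract, RPL39 with the longest, the members with the largest differences where the table has them, and 2 paralogs beside their parents.
RPS6 (chr9:19380217-19380246, minus strand): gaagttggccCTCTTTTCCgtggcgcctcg
RPLP0 (chr12:120201092-120201121, minus strand): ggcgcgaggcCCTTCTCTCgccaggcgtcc
RPL39 (chrX:119791611-119791640, minus strand): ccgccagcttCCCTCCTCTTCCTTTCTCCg
RPL27A (chr11:8682782-8682811, plus strand): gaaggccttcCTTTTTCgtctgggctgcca
RPL3 (chr22:39319604-39319633, minus strand): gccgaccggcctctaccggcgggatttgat
RPS3A (chr4:151099618-151099647, plus strand): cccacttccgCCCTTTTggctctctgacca
RPS26 (chr12:56041908-56041937, plus strand): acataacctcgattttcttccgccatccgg
RPL36 (chr19:5690285-5690314, plus strand): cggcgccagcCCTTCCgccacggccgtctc
RPL7L1 (chr6:42879606-42879635, plus strand): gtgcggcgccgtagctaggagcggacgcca
RPL22 (chr1:6199576-6199605, minus strand): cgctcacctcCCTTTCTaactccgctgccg
RPL22L1 (chr3:170870176-170870205, minus strand): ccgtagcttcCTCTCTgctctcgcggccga
RPL26 (chr17:8383174-8383203, minus strand): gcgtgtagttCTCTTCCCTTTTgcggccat
RPL26L1 (chr5:172958719-172958748, plus strand): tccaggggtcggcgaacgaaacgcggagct
RPL39 carries 19 pyrimidines in a row from its start, 12 bases longer than the 7 of RPL27A and RPS3A. RPL3 has 4 before an A and so missed the rule by 1 base. RPL22L1 has a tract as RPL22 does, whereas RPL26L1 has none at the start shown or at its other listed start, although RPL26 has 12 pyrimidines. A missing tract says only that these letters are not at the annotated start; RPS26, for instance, has pyrimidines a few bases farther on. The 47 members with a tract had log2 ratios with medians of 0.013, -0.013 and -0.074 at 10, 30 and 360 min, and the 18 compared members without one had -0.048, -0.012 and -0.038. Of the 8 members counted as higher or lower at 10 min under the rule given next, 2 had a tract, 4 had none and 2 had no start in the table. Of the 4 counted at 30 min, 2 had a tract, 1 had none and 1 had no start in the table. Of the 3 counted at 360 min, 2 had a tract and 1 had none.

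A member was counted as higher or lower where it was at least 25% above or at least 20% below 0 min, its interval excluded 1 and it reached 5 CPM in either library. Few members passed. At 10 min 2 of 80 were higher (27% of all genes) and 6 lower (29.8% of all genes). At 30 min 1 was higher (15.6% of all genes) and 3 lower (15.4%). At 360 min 1 was higher (12.8% of all genes) and 2 lower (13%). At 2-fold, RPL7L1 was the 1 member to pass, lower at 10 and 360 min, where 6.85% and 3.34% of all genes were lower; at 30 min 0 members were lower and 3.24% of genes were. At 2-fold 0 members were higher at 10, 30 or 360 min, against 7.7%, 3.55% and 3.26% of all genes. With no replicate, a ratio near these limits may lie within the difference between cultures.

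**Figure D2:**
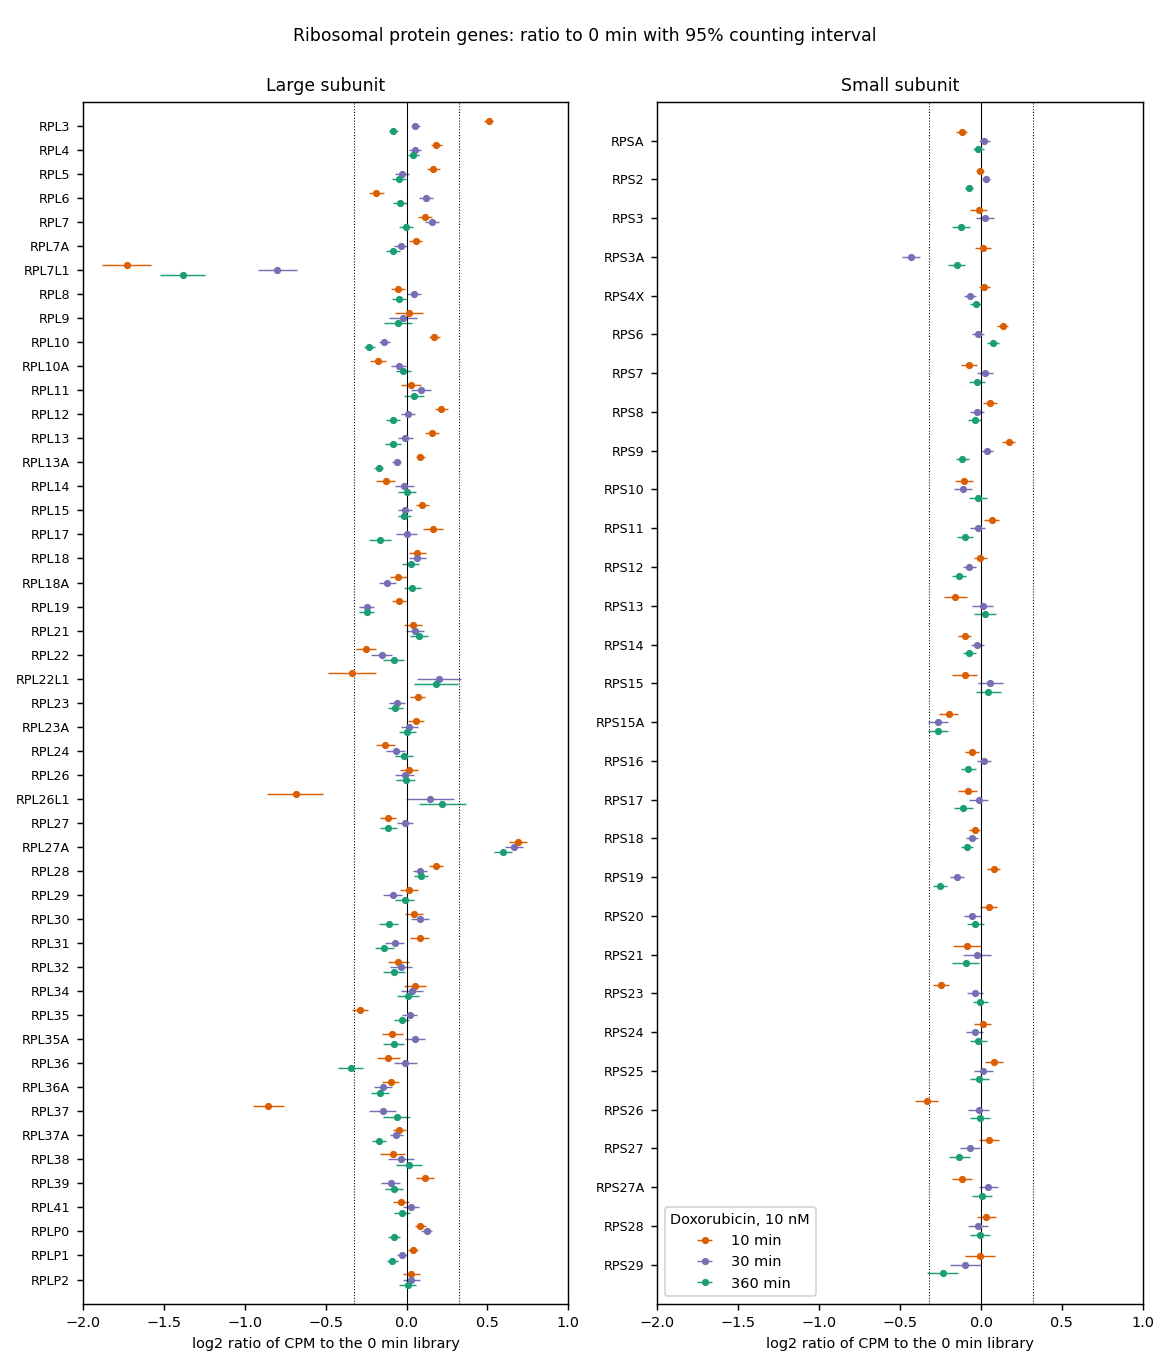
log2 ratio of CPM to the 0 min library for 79 of the 80 compared ribosomal protein genes at 10, 30 and 360 min, large subunit left and small subunit right; points are ratios, bars are 95% counting intervals and dotted lines mark 25% above and 20% below 0 min. Most points lie within the dotted lines at all 3 times; RPL7L1 lies farthest to the left, and RPL27A to the right.

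In the large subunit RPL3, RPL27A, RPL37, RPL36 and the paralogs RPL7L1, RPL26L1 and RPL22L1 passed at 1 or more times. RPL3 (ENSG00000100316, chromosome 22, 39312882 to 39320389, minus strand; GRCh38 and GENCODE 29, as for the genes below), a core protein that reaches into the peptidyl transferase centre, had 1315, 1869, 1365 and 1243 CPM at 0, 10, 30 and 360 min. Its 10 min library stood above the other 3, which lay within 10% of each other. Its ratio at 10 min was 1.42 (1.40 to 1.45), and the assembly added no counts at its locus. RPL12, part of the stalk base, had 639.7, 743, 644 and 604 CPM, also highest at 10 min, with a ratio of 1.16 (1.13 to 1.19) that did not pass. RPL28 had 586, 665, 621 and 623 CPM and a ratio of 1.14 (1.10 to 1.17) at 10 min. RPL35, which lies near RPL26 at the tunnel exit, had 531, 435, 539 and 520.1 CPM and a ratio of 0.819 (0.792 to 0.848) at 10 min. RPL21 had 361, 371, 374 and 379.7 CPM and a ratio of 1.05 (1.01 to 1.09) at 360 min. None of RPL28, RPL35 and RPL21 passed. RPL10, which joins late in assembly and is needed for subunit joining, had 1069, 1205, 972 and 911 CPM. It was therefore highest at 10 min and lowest at 360 min, at 0.852 (0.832 to 0.873) of 0 min; 34.2% of its exon bases overlap DNASE1L1 on the other strand, and whether the counting used strand is not given in the sources used here.

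RPL27A (ENSG00000166441, chromosome 11, 8682411 to 8714759, plus strand) had 298, 480.0, 472 and 451 CPM of annotated transcripts at 0, 10, 30 and 360 min. The 0 min library stood apart and the 3 treated libraries were alike. The ratios were 1.61 (1.55 to 1.68) at 10 min, 1.59 (1.53 to 1.65) at 30 min and 1.51 (1.46 to 1.57) at 360 min. The deposited transcript table also holds models that the submitters' assembly added to known loci, and at this locus they had 197, 4.64, 5.66 and 7.31 CPM. Annotated and assembled transcripts together gave 495, 485, 478 and 458 CPM and a ratio of 0.979 (0.947 to 1.01) at 10 min, so the locus as a whole was not higher.

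RPL37, a small zinc-binding protein, showed the reverse pattern. Its annotated transcripts (ENSG00000145592, chromosome 5, 40825262 to 40835335, minus strand) had 178, 98.4, 161 and 171 CPM at 0, 10, 30 and 360 min, lowest at 10 min with a ratio of 0.553 (0.518 to 0.591). Its assembled models had 98.8, 194, 103 and 97.7 CPM, and the sum was 277, 292, 264 and 268 CPM, with a ratio of 1.06 (1.01 to 1.10) at 10 min. RPL36, of which 17.6% of exon bases overlap HSD11B1L on the same strand, passed as lower at 360 min alone, with 236, 218, 235 and 186 CPM and a ratio of 0.787 (0.747 to 0.828). With its assembled models, at 6.79, 3.74, 4.90 and 69.5 CPM, the sum was 243, 222, 240.2 and 255 CPM. RPL19 did not pass. It had 578, 560.4, 487 and 488 CPM of annotated transcripts and 581, 563, 579 and 576 CPM with assembled models.

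Assembled models could be tied to 74 of the 80 compared loci, and 17 of them had assembled counts. In 11 the models held over 5% of the locus. Beside those above they included RPL11, with 295, 289, 256 and 262 CPM in models against 298, 304, 317 and 309 CPM annotated at 0, 10, 30 and 360 min, and RPS4X, with 143, 149, 148 and 142 CPM against 914, 928, 872 and 893. In both, the split was similar in all 4 libraries, unlike in RPL27A. With the models added, RPL3 remained higher at 10 min and RPL7L1, RPL22L1, RPL26L1 and RPS26 were among those that remained lower; at 30 min RPS3A was among those that remained lower; at 360 min no tied member passed in either direction, against 1 higher and 2 lower without them.

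**Figure D3:**
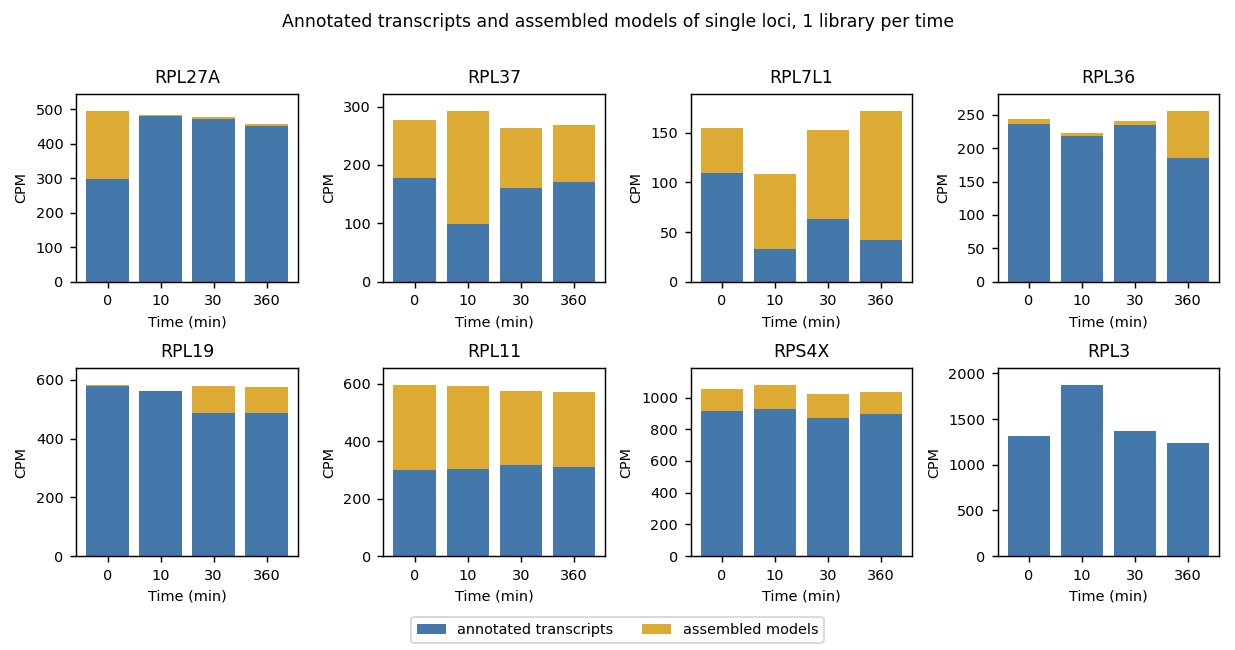
CPM of annotated transcripts (blue) and of assembled models at the same locus (yellow) at 0, 10, 30 and 360 min for 8 ribosomal protein genes, stacked, with 1 library per time. In RPL27A, RPL37, RPL36 and RPL19 the blue part changes while the full height stays nearly level; RPL3 has no assembled part and its full height changes, and in RPS4X and RPL11 the split is similar in all 4 libraries.

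In the small subunit, 3 members passed. Of these, 2 are described here. RPS3A (ENSG00000145425, chromosome 4, 151099573 to 151104652, plus strand) was low at 30 min alone, with 440.3, 444, 327 and 397 CPM at 0, 10, 30 and 360 min and a ratio of 0.742 (0.714 to 0.771); 11.2% of its exon bases overlap SH3D19 on the other strand. RPS26 (ENSG00000197728, chromosome 12, 56041351 to 56044697, plus strand), which contacts mRNA upstream of the start codon, was low at 10 min alone, with 279, 220.5, 276 and 277 CPM and a ratio of 0.792 (0.755 to 0.830). The other 28 members of the small subunit stayed inside both limits at all 3 times. RPS15A came nearest to the limit at 30 and 360 min, with 333, 289.7, 277 and 277 CPM, followed at 360 min by RPS19, with 694, 733, 626 and 582 CPM. RPS19 is the protein whose gene is most often mutated in Diamond-Blackfan anaemia.

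The 3 compared paralogs all passed as lower at 10 min, when 29.8% of all genes did, and their parents did not. RPL7L1 (ENSG00000146223, chromosome 6, 42879618 to 42889925, plus strand) had 109.8, 33.1, 63.1 and 42.1 CPM of annotated transcripts, against 603, 652, 673 and 602 CPM for RPL7 at the same 4 times. All 3 treated libraries were below 0 min, with ratios of 0.302 (0.272 to 0.335), 0.575 (0.528 to 0.625) and 0.383 (0.348 to 0.422) at 10, 30 and 360 min. Its assembled models had 44.4, 74.7, 89.8 and 129.5 CPM, and the whole locus had 154, 108, 153 and 172 CPM, low at 10 min alone, at 0.699 (0.655 to 0.748) of 0 min. At 360 min the whole locus was at 1.11 (1.05 to 1.18) of 0 min, the other direction from its annotated transcripts.

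RPL26L1 (ENSG00000037241, chromosome 5, 172958729 to 172969771, plus strand) had 50.5, 31.4, 55.8 and 58.9 CPM, low at 10 min alone with a ratio of 0.622 (0.550 to 0.701), while RPL26 was at 1.01 (0.973 to 1.05) of 0 min. RPL22L1, which can take the place of RPL22 in the ribosome, had 59.8, 47.3, 68.7 and 67.8 CPM and a ratio of 0.792 (0.714 to 0.878) at 10 min. RPL22 had 303, 255, 273 and 287 CPM and a ratio of 0.841 (0.804 to 0.879), so both were below 0 min at 10 min, RPL22 short of the limit. With its assembled models RPL22 was nearer its 0 min level at 10 min, at 0.927 (0.889 to 0.966). RPL22L1 had no assembled counts. Both RPL22L1 and RPL26L1 were above 0 min at 30 and 360 min, inside the limits. Reads that the authors' aligner could place in either of 2 close copies may have been split between them. The remaining 3 paralogs were too low to compare. RPL3L, which replaces RPL3 in heart and skeletal muscle, had 0.527, 0.144, 0.326 and 0 CPM. RPL10L, an intronless copy used in male germ cells of the mouse, had 4.50, 4.50, 4.41 and 4.44 CPM. RPL39L was at 0 in all 4 libraries, where 3 read pairs would be 0.211 to 0.218 CPM. The heart-type paralog was thus near the floor in cells labelled as cardiomyocytes, while RPL39 had 362, 391, 338 and 343 CPM.

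Members with known roles in signalling or in the factor-binding stalk stayed inside the limits of 25% above and 20% below 0 min. Of the stalk proteins, which recruit elongation factors, RPLP0 had 919, 976, 1002 and 872 CPM at 0, 10, 30 and 360 min. RPLP1 had 1102, 1132, 1081 and 1038 CPM and RPLP2 had 441, 450.4, 450.3 and 443 CPM. All 3 were slightly above 0 min at 10 min and RPLP0 and RPLP1 below it at 360 min. Of the MDM2-binding members, RPL5 had 617, 693, 606 and 598 CPM. RPL11 had 298, 304, 317 and 309 CPM and RPL23 had 495, 519, 475 and 472 CPM. None of these 3 passed at any time. RPS6, the substrate of S6 kinase, had 909, 998, 896 and 956 CPM, and 10.4% of its exon bases overlap AL391834.2 on the other strand. RPSA, also known as the laminin receptor, had 1002, 923, 1016 and 991 CPM, and pseudogenes named after it had 133, 125, 139 and 132 CPM. RPS27A, made as a fusion with ubiquitin, had 315, 291, 325 and 316 CPM. RPL41, the smallest ribosomal protein, had 459.5, 448, 469 and 450.5 CPM.

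Although each ribosome holds core proteins in equal number, the mRNAs differed widely in level per transcript length. As transcript copies scaled to an equal library total (TPM), the 80 compared members had a median of 1290, 1188, 1193 and 1239 at 0, 10, 30 and 360 min, against about 24.9, 24.5, 24.8 and 25.5 for all genes compared on the same scale. The upper quartile was 2.12, 2.34, 2.05 and 2.26 times the lower. RPS2, a core protein at the mRNA entry of the small subunit, was highest, at 4491, 4575, 4534 and 4290.0 TPM, and 14.5% of its exon bases overlap AC005363.1 on the same strand. Next on the 4-library mean came RPS18, RPL13A, RPL35, RPS12 and RPL3. RPL35 had 2652, 2227, 2664 and 2604 TPM, RPS12 had 2503, 2547, 2357 and 2279.9 TPM and RPL3 had 2137, 3123, 2197 and 2021 TPM. The lowest were RPL7L1, at 66.2, 30.1, 39.7 and 40.5, RPL22L1, at 139.8, 127, 150.0 and 149, and RPL26L1, at 177, 106, 189 and 202, followed by RPL14, RPL37 and RPL32. RPL14 had 214, 284, 262 and 244 TPM, RPL37 had 263, 234, 279 and 275 TPM and RPL32 had 295, 293, 299 and 281 TPM. The 3 compared paralogs were thus the 3 lowest. The order of neighbours should be read loosely: RPS18 had 3276, 3274, 3125 and 3054 TPM and RPL13A, ranked next to it, had 3192, 3452, 3021 and 2838 TPM, and these ranges overlap. Low values of RPL37 and RPL7L1 here leave out their assembled models. Pseudogenes named after RPS2 had 403, 401, 433 and 396 CPM, and their counts and those of RPS2 may be mixed.

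**Figure D4:**
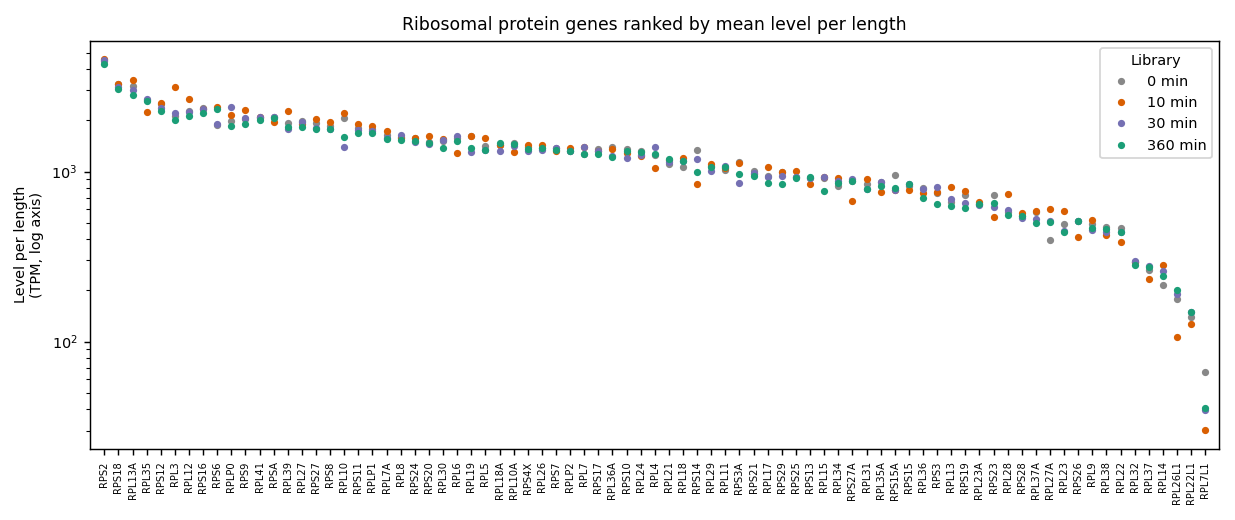
Level per length (TPM, log axis) of 79 of the 80 compared ribosomal protein genes in the 4 libraries, ranked from left to right by the mean. RPS2 is highest near 4473 on average and RPL7L1 lowest near 44.2, and for most genes the 4 points lie almost on top of each other.

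The counts of some members were divided among annotated transcripts differently in some libraries, both where the gene total hardly moved and where it did. The transcript with the most counts differed from that at 0 min in 10 of 80 members at 10 min, 8 at 30 min and 4 at 360 min. In RPL4, the retained-intron transcript ENST00000561775 had 502, 0, 534 and 484 CPM at 0, 10, 30 and 360 min and the coding transcript ENST00000307961 had 279, 723, 244 and 322 CPM. The retained-intron model, which held most of the gene's counts at the other 3 times, was thus at 0 in the 10 min library, while the gene as a whole had 863, 980.4, 895 and 889 CPM. In RPS27A, ENST00000402285 had 154, 0.360, 156 and 144 CPM and ENST00000272317 had 114, 227, 121 and 123 CPM, again with the 10 min library set apart. In RPS3A, ENST00000512690 had 201, 5.13, 169 and 4.86 CPM and ENST00000274065 had 212, 420.1, 109 and 371 CPM, so that 0 and 30 min resembled each other, as did 10 and 360 min. RPS6 had 535, 301, 453 and 222 CPM of ENST00000380394 and 354, 681, 422 and 722 CPM of ENST00000315377, with the longer model falling behind the shorter at 10 and 360 min. These models share most of their exons, and how reads were assigned among them is not given in the sources used here, so a count per transcript is less certain than the sum of the gene.

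Summed over the 83 members, coding transcripts held 87.3%, 88.4%, 86.5% and 86.8% of annotated counts at 0, 10, 30 and 360 min. Retained-intron transcripts held 6.55%, 5.80%, 7.29% and 7.43%, transcripts marked for nonsense-mediated decay 2.19%, 2.18%, 2.02% and 1.87%, and other processed transcripts 3.97%, 3.60%, 4.20% and 3.87%. The retained-intron share was lowest at 10 min, which rested on RPL4, where it was 66.97, 21.8, 72.5 and 63.1 percent at 0, 10, 30 and 360 min. Without RPL4 the family's share was 5.25%, 5.42%, 5.82% and 6.14%, so that 10 min was no longer lowest and 30 and 360 min stayed above 0 min. The retained-intron share was above 0 min in 36 of 67 members at 10 min, 50 at 30 min and 41 at 360 min. RPS18 stood out at 360 min: its retained-intron share was 14.3, 11.9, 12.8 and 40.8 percent while its gene total was 889.8, 866, 857 and 838 CPM.

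As a whole, the family held 4.10%, 4.17%, 4.05% and 3.92% of each library at 0, 10, 30 and 360 min. The exact binomial 95% intervals were 4.09 to 4.11%, 4.16 to 4.18%, 4.04 to 4.06% and 3.91 to 3.94%, and they do not overlap, but they cover counting error only. The large subunit held 2.41%, 2.51%, 2.41% and 2.31%, and the small subunit 1.69%, 1.65%, 1.64% and 1.62%. The large subunit was thus highest at 10 min and the small subunit at 0 min. At 10 min, 28 of 49 compared members of the large subunit were above 0 min and 21 below. Among those above were RPL3, at 1869 CPM against 1315 CPM, and RPL10, at 1205 against 1069 CPM. RPL27A was another, at 480 against 298 CPM of annotated transcripts, though not with its assembled models. Mitochondrially encoded mRNAs, another abundant group, held 3.57%, 3.50%, 3.44% and 3.56%.

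Other genes of translation were compared on the same rule, as lists taken whole. Of 20 initiation factor genes, 3 were higher and 12 lower at 10 min (27% and 29.8% of all genes), 4 higher and 0 lower at 30 min (15.6% and 15.4% of all genes), and 3 higher and 2 lower at 360 min (12.8% and 13% of all genes). Of the 17 tied to an assembled locus, 2 were higher and 10 lower at 10 min, 3 and 0 at 30 min, and 2 and 2 at 360 min; with assembled models these were 1 and 10, 2 and 0, and 1 and 1. EIF2S3, another subunit of the initiator tRNA carrier, was at 0.714 at 10 min and at 1.08 with assembled models. The list median log2 ratio was -0.49, 0.051 and 0.074, while that of the ribosomal proteins stayed within 0.05 of 0. EIF5, which triggers GTP hydrolysis at the start codon, had 196, 70.5, 229 and 119.8 CPM at 0, 10, 30 and 360 min and a ratio of 0.360 (0.334 to 0.387) at 10 min. EIF2S1, the alpha subunit of the initiator tRNA carrier, had 120.0, 41.4, 96.4 and 129 CPM, a ratio of 0.344 at 10 min and of 0.592 with assembled models. EIF4G1, the cap-complex scaffold, had 764, 391, 660.4 and 559 CPM, at 0.512 of 0 min at 10 min (0.591 with assembled models) and at 0.732 at 360 min (1.08 with assembled models). The largest ratios above 1 are uncertain. EIF3C was at 3.90 at 10 min but has a near-identical copy, EIF3CL, and EIF5B was at 3.09, which became 0.753 with assembled models.

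Of 15 translation and associated factors whose mRNAs are also known to carry a TOP tract, 4 were higher and 2 lower at 10 min, 1 higher and 0 lower at 30 min, and 0 higher and 1 lower at 360 min. The share higher at 10 min was near the 27% of all genes, and 29.8% of all genes were lower; the shares of all genes were 15.6% and 15.4% at 30 min and 12.8% and 13% at 360 min. Their median log2 ratio was 0.16, -0.00085 and -0.048. EEF2, the translocation factor, had 3358, 4749, 3527 and 3248 CPM and a ratio of 1.41 (1.40 to 1.43) at 10 min, close in size to that of RPL3. EIF4B was at 1.36, the poly(A)-binding protein gene PABPC1 at 1.36 and TPT1 at 1.33. NPM1, a nucleolar chaperone, was lower at 0.715. EEF1B2 was at 0.775, which became 0.849 with assembled models and then did not pass. EEF1A1, which delivers aminoacyl-tRNA, had 6829, 6943, 6825 and 4773 CPM, level up to 30 min and at 0.699 (0.692 to 0.706) at 360 min.

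Of 13 compared chaperones and carriers that escort newly made ribosomal proteins, 0 were higher and 6 lower at 10 min (27% and 29.8% of all genes), 1 higher and 1 lower at 30 min (15.6% and 15.4% of all genes), and 0 passed in either direction at 360 min (12.8% and 13% of all genes). GRWD1, the relative of a yeast chaperone of Rpl3, had 90.1, 31.7, 62.1 and 96.4 CPM and a ratio of 0.352 (0.315 to 0.392) at 10 min, when RPL3 itself was higher. TSR2, which escorts RPS26, had 66.7, 37.2, 71.3 and 61.9 CPM and a ratio of 0.557 (0.500 to 0.622) at 10 min, when RPS26 was lower. LTV1, an assembly factor that binds RPS3, was at 0.521 at 10 min, when RPS3 was at 0.989 of 0 min. BCCIP was at 0.609 at 10 min. Whether these genes moved with the proteins they escort was not tested. Among genes that encode ribosomal proteins or ribosome-bound proteins under other symbols, FAU was lower at 10 min, with 173, 134, 174 and 165 CPM at 0, 10, 30 and 360 min, and RPL36AL and RACK1 passed at none of the 3 times. RACK1 had 365, 412, 367 and 336 CPM.

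**Figure D5:**
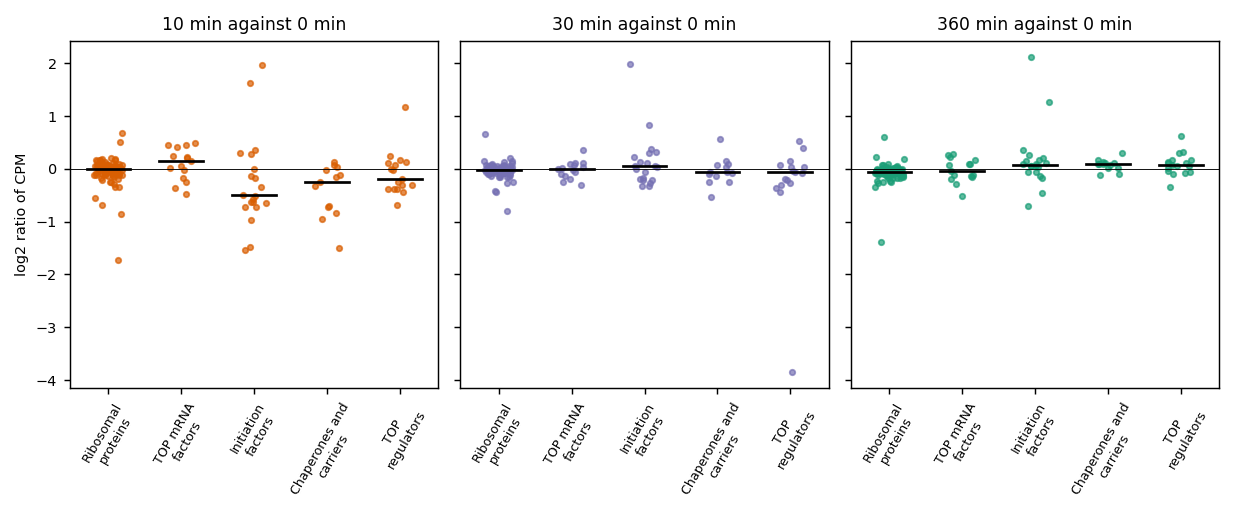
log2 ratio of CPM to the 0 min library at 10, 30 and 360 min for 80 ribosomal protein genes, 15 TOP mRNA factors, 20 initiation factors, 13 chaperones and carriers of ribosomal proteins and up to 17 regulators of TOP mRNA translation; points are genes and bars are medians. At 10 min the initiation factors spread widely around a median of -0.49 while the ribosomal proteins gather near 0.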

How the data were processed

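Polyadenylated RNA was measured by sequencing in 4 libraries, 1 per time. The authors deposited estimated counts per transcript and per gene, as whole numbers neither scaled nor divided by length. HISAT2, DESeq2 and GRCh38 are named per the submitters' processing notes; no source used here gives the counting tool, annotation release or strand setting. Assembled models held 10.7% to 11.7% of counts.

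Annotated transcripts were summed per GENCODE 29 gene and divided by column totals (CPM). A read pair was taken as about 4 deposited counts, a cautious assumption, and ratios carry exact conditional binomial (Clopper-Pearson) 95% intervals on counts divided by 4 (SciPy 1.17.1, Python 3.11.15, numpy 2.4.6, pandas 2.3.3). A gene passed at 25% or more above or 20% or more below 0 min, with at least 5 CPM in either library and an interval excluding 1. There are no molecular identifiers, so intervals and the floor of 3 read pairs cover counting error only. The libraries are worth 13789153 to 14218970 read pairs on this scale, and the median half-width of the members' intervals was 0.051 to 0.053 on the log2 scale. On simulated libraries the rule was tested with 200 genes changed 1.5-fold. Those libraries held counting error alone, at the same 4 counts per read pair. The simulation therefore cannot show how the rule does under variation between cultures. Assembled loci were tied to members by identical counts, with at least 95% of the locus in the member. Per-length levels used the annotated transcript lengths. Starts came from a RefSeq promoter table (GRCh38.p14, 250 bases before to 50 after each start).

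Members and lists were chosen with earlier results of these data known. Members described fully had the 5 highest and 5 lowest ratios at each time, the 6 highest and 6 lowest levels per length, or were paralogs, their parents or members of known extra role, and up to 4 genes of each other list were named by absolute log2 ratio; EIF2S3, EIF4G1, PABPC1, TPT1, EEF1B2 and TSC1 were added to these after their values were seen. With 1 library per group no test was run. Alternatives were TMM (edgeR 4.0.16) and median-of-ratios (DESeq2 1.42.0) scaling in R 4.3.3, undivided counts, other CPM and fold thresholds, coding or leading transcripts alone, assembled models added, per-length levels, and the members without paralogs. Some genes and 1 further member set are not reported here. Figures used matplotlib 3.10.9.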

Additional observations from a re-analysis of the deposited data

Results flagged for a closer look

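Assembled transcript models, which the CPM of annotated transcripts leave out, were at least 2-fold above 0 min in a treated library at 4 member loci, with at least 5 CPM and a counting interval excluding 1. Smaller excesses at other loci, such as RPL37 at 10 min, fell short of 2-fold. RPL7L1 models were at 89.8 CPM at 30 min and 130 CPM at 360 min, against 44.4 CPM at 0 min. RPL19 models were at 92.1 CPM at 30 min and 88.2 CPM at 360 min, against 2.64 CPM at 0 min. RPL36 models were at 69.5 CPM at 360 min, against 6.79 CPM at 0 min, and RPL14 models were at 14.9 CPM at 10 min, against 1.37 CPM at 0 min. Each comparison is of 2 libraries with no replicate.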

How the results depend on the processing

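No paired analysis was possible because each time has 1 library. At 10 min the members' median log2 ratio was -0.038 with TMM and -0.029 with median-of-ratios scaling, against 0.0027 with column totals; it was also below 0 with coding transcripts alone, with assembled models and with no filter on low values. Undivided counts changed no count. Of 684 alternative values for 114 named log2 ratios, 650 kept their side of the threshold, 6 became weaker and 19 passed newly. The other 9 changed sign, with a value past the threshold in either setting. A change of sign between values inside the limits was counted as kept. The counts of members that passed were small and moved with the settings. At 10 min, higher members numbered 4 with coding transcripts alone, 11 with the leading transcript alone, 1 with assembled models, 5 with per-length levels and 0 at 2-fold, against 2; lower members numbered 3 without paralogs and 1 at 2-fold, against 6. At 30 min, higher members numbered 2 with the leading transcript and 0 with assembled models or at 2-fold, against 1; lower members numbered 5 with coding transcripts, 10 with the leading transcript and 0 at 2-fold, against 3. At 360 min, higher members numbered 3 with the leading transcript and 0 with assembled models or at 2-fold, against 1; lower members numbered 5 with the leading transcript, 0 with assembled models, 1 without paralogs and 1 at 2-fold, against 2.

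The log2 ratios listed first changed sign with a value past the threshold in either setting. With the leading transcript alone they were RPS27A at 10 min (1.00) and RPS3A at 360 min (0.81). With assembled models they were RPL27A at 10, 30 and 360 min (-0.030, -0.050 and -0.11), RPL37 at 10 min (0.079), RPL36 at 360 min (0.071) and RPL7L1 at 360 min (0.15). With per-length levels RPL14 at 10 min became 0.40. Inside the limits, RPL11 was among those that changed sign with assembled models, to -0.0016, -0.049 and -0.057 at 10, 30 and 360 min. Reassigning counts among transcripts of a locus alters these by construction; other causes were not tested.

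The share of the library at 0, 10, 30 and 360 min was 3.58%, 3.68%, 3.50% and 3.41% with coding transcripts alone, 4.21%, 4.28%, 4.15% and 4.03% with assembled models, and 4.07%, 4.15%, 4.03% and 3.91% without paralogs. On the per-length scale it was 10.4%, 10.6%, 10.1% and 9.91%. In an alternative chosen after seeing the data, without RPL4, the retained-intron share was 5.25%, 5.42%, 5.82% and 6.14%. The limits are 1 library per time, an unrecorded medium change at 0 min and uncertain sharing of reads among transcripts and near copies.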

Other observations

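Regulators of TOP mRNA translation were compared as a further list. Of 17 compared genes 1 was higher and 5 lower at 10 min, against 27% and 29.8% of all genes, so the share that was lower was near that of all genes. At 30 min, of 16, 2 were higher and 3 lower (15.6% and 15.4% of all genes), and at 360 min, of 17, 1 was higher and 1 lower (12.8% and 13% of all genes). DDIT4, a stress-induced inhibitor of mTOR signalling, had 100.4, 119, 74.2 and 155 CPM at 0, 10, 30 and 360 min, at 1.54 (1.44 to 1.65) of 0 min at 360 min. SESN2, another stress-induced inhibitor, had 56.03, 34.7, 80.5 and 59.1 CPM, lower at 10 min and higher at 30 min. TSC1 was at 0.769, 0.781 and 0.792 of 0 min, and with assembled models at 0.864, 0.886 and 0.902. RPTOR, the mTOR complex scaffold, was at 0.0692 at 30 min but at 0.885 with assembled models. MYC was the 1 gene higher at 10 min, with 2.34, 5.25, 4.41 and 1.81 CPM, close to the 5 CPM limit. With assembled models MYC was at 2.36, 2.98 and 1.32 of 0 min and passed as higher at 10, 30 and 360 min.

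Of 9 genes for the handling of stalled ribosomes, 1 was higher and 2 lower at 10 min (27% and 29.8% of all genes), 2 higher and 1 lower at 30 min (15.6% and 15.4%), and 1 higher and 0 lower at 360 min (12.8% and 13%). ZNF598, which marks collided ribosomes with ubiquitin, was at 1.35, 1.66 and 2.25 of 0 min, and at 0.697, 1.20 and 1.06 with assembled models. ASCC3, the helicase that splits such ribosomes, had 126, 56.4, 112 and 107 CPM and was at 0.449 at 10 min, or 0.653 with assembled models. NUFIP1 was at 0.523 at 10 min and 0.612 at 30 min.

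The annotation holds 1149 pseudogenes named after 77 of the members. Between 271 and 297 of them had counts, and together they had 1507, 1572, 1545 and 1491 CPM at 0, 10, 30 and 360 min, or 3.68%, 3.77%, 3.82% and 3.80% of the members' counts. These shares are of the family and were far higher for some members. Pseudogenes named after RPL9 had 276, 279, 279 and 283 CPM, against 159, 161, 156 and 153 CPM for RPL9 itself. Those named after RPS2 had 403, 401, 433 and 396 CPM, and those named after RPSA 133, 125, 139 and 132 CPM. Such copies share sequence with the mRNAs, so their counts and the members' may be mixed. At least 10% of exon bases overlap another gene in 7 members on the other strand and in 6 on the same strand; RPL36, with 17.6% shared with HSD11B1L, is of the second kind.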
